A study of Mus musculus with 9 samples.

Results

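The genes described here are 10 that act in antigen presentation by MHC class I and in the immunoproteasome, and they were chosen by name: H2-K1, H2-D1, B2m, Tap1, Tap2, Tapbp, Nlrc5, Psmb8, Psmb9 and Psmb10. Each was read from the array row that names it and has the highest mean over the 9 arrays, so that all 10 were found among the 31909 gene rows tested. The cells were pmel1 CD8+ T cells, which carry a transgenic T cell receptor for a peptide of the melanocyte protein gp100. Cells carrying the congenic marker Thy1.1 were transferred, 2000000 per mouse, into naive congenic recipients. All recipients received 100 µg of human gp100 peptide intravenously, and the transferred cells were sorted by magnetic selection and flow cytometry from single spleens on day 4. In the combination group the mice also received 200 µg of the agonist anti-CD27 antibody AT124 with 100 µg of anti-PD-1 (RMP1-14) and 100 µg of anti-PD-L1 (10F.9G2). The anti-CD27 group received 200 µg of AT124 with 200 µg of isotype control antibodies. The anti-PD-1/L1 group received 100 µg of each blocking antibody with 200 µg of isotype control antibodies. Each group had 3 mice and 1 array per mouse. A group given peptide with isotype antibodies alone was not analysed here, so each comparison is between 2 of these treatments and none is against untreated cells. CD27 gives T cells a costimulatory signal, and PD-1 is an inhibitory receptor whose ligand PD-L1 is found on many cells.

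MHC class I molecules show peptides from proteins made inside the cell to CD8+ T cells. Proteasomes cut the proteins, the TAP transporter carries the peptides into the endoplasmic reticulum, and tapasin helps load them onto a heavy chain bound to beta-2-microglobulin. Interferon-gamma induces most of these genes, among them 3 catalytic subunits that replace those of the ordinary proteasome and form the immunoproteasome, and NLRC5 is the factor best known for switching on class I promoters. Here the genes were measured in the responding T cells, which carry class I themselves, and not in the cells that present peptide to them.

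Stretches of DNA just before the transcription starts of these genes, as RefSeq gives them for GRCm38.p6, show which of the named regulatory letters they hold. RefSeq windows were matched for 8 of the 10 genes, and none was used for Tap2 or Nlrc5. H2-K1 had 2 windows, and the one with the most upstream start was used. Positions are counted from the start used. The windows of H2-K1, H2-D1 and B2m are the 250 bases before the start, and the fourth is the stretch between the opposed starts of Psmb9 and Tap1, which lie head to head. Each is shown because the genes it precedes are the 2 classical heavy chains, their light chain, and a pair that moved in opposite directions in the values as deposited (below). Capitals mark matches to GGG and TTCC with 2 bases (GGGNNTTCC) or 3 bases between them (binding sequences of NF-kappa B), to GAAA and GAAA with 2 bases between them (the core of an interferon-stimulated response element) or to CCAAT (the core of the Y box), on either strand.
H2-K1, chr17:34000348-34000597, minus strand: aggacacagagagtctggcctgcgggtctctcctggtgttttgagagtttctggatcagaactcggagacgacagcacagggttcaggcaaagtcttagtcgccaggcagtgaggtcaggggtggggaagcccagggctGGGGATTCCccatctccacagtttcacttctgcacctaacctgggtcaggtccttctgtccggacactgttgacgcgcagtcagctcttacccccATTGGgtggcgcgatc
H2-D1, chr17:35262844-35263093, plus strand: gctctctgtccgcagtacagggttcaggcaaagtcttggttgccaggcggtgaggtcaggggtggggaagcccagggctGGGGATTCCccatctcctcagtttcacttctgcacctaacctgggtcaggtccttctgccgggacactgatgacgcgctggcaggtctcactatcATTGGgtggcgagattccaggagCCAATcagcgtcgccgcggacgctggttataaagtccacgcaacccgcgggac
B2m, chr2:122147437-122147686, plus strand: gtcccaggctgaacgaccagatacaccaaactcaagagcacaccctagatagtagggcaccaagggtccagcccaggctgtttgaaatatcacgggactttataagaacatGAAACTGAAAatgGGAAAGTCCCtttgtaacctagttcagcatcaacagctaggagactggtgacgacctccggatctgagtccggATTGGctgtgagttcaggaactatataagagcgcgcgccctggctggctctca
Psmb9 to Tap1, chr17:34187331-34187555, plus strand: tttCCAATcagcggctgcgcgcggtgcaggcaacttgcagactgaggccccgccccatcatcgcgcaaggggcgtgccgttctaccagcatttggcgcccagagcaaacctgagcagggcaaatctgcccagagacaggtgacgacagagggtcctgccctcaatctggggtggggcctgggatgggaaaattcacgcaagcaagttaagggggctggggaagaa

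The H2-K1 and H2-D1 windows aligned over 190 bases, of which 166 were identical (87.4%). Both held GGGGATTCC, whose first base lay at position -111 from the H2-K1 start and at -171 from the H2-D1 start, and both held CCAAT. The B2m window held the interferon-response core GAAACTGAAA at -139, a match to GGG and TTCC with 3 bases between them on the minus strand at -126, and CCAAT. The 225 bases between Psmb9 and Tap1 held a single CCAAT, beside the Psmb9 start, and none of the other sequences searched. Of the windows not printed, Tapbp held 2 CCAAT matches, Psmb8 held TTCNNNGAA (the interferon-gamma activated sequence, GAS) at -97, and Psmb10 held none of the 5 sequences. Over the 250 bases before the start, the interferon-response core was in 2.98% of all 32851 mouse windows, TTCNNNGAA in 7.02%, GGGNNTTCC in 4.98%, its form with 3 bases between in 4.65% and CCAAT in 33.8%. No match overlapped another. A match describes letters only, since binding was not measured. Only exact matches to these patterns were counted, and a variant that differs by a base is not marked. A window without a match is therefore not shown to lack such an element.

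**Figure D1:**
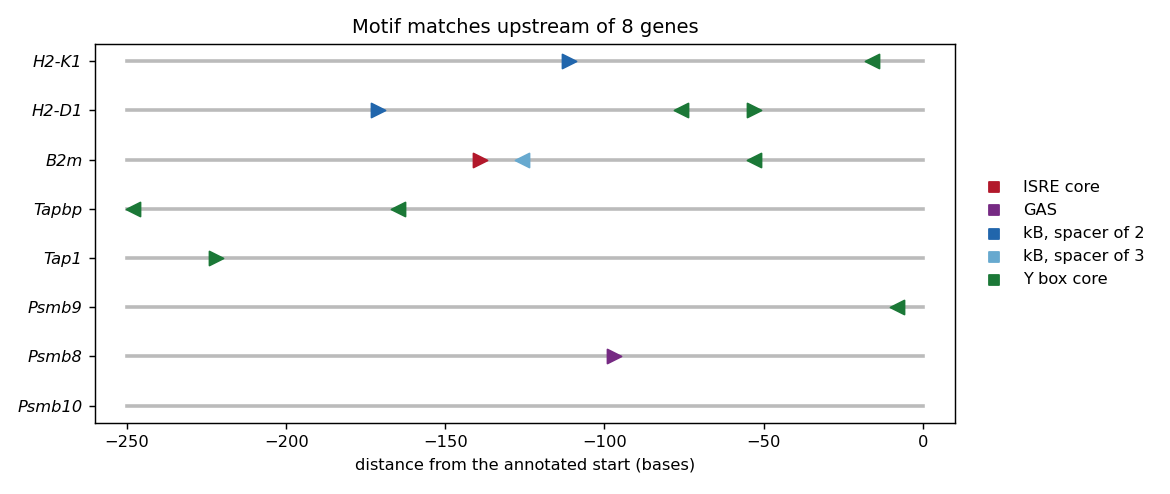
Matches in the 250 bases before the transcription start of the 8 genes with a RefSeq window, one line per gene, by distance from the start in bases; arrowheads point right on the gene's strand and left on the other. Colours stand for the interferon-response core (ISRE core), TTCNNNGAA (GAS), GGG and TTCC with 2 or 3 bases between (kB, spacer of 2 or 3) and CCAAT (Y box core), and Psmb10 has no match.

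Whole-array values that differ between the groups stand beside every result below. The mean of the array's positive exon controls was 6.81 ± 0.04 in combination arrays, 6.70 ± 0.02 in anti-CD27 arrays and 5.75 ± 0.19 in anti-PD-1/L1 arrays (log2, SD, n = 3 each), while background controls averaged 3.25 ± 0.04, 3.27 ± 0.06 and 4.06 ± 0.08. Bacterial and phage spike controls averaged 8.60 ± 0.11, 8.60 ± 0.02 and 9.75 ± 0.12 in the same order of groups. The anti-PD-1/L1 arrays therefore stood apart from the other 6 in measures of array performance, and treatment and these measures cannot be told apart. The CD8 T cell markers measured (8 rows, among them Cd8a and Cd3e) had a mean of 9.43 ± 0.05 in combination cells, 9.57 ± 0.01 in anti-CD27 cells and 8.57 ± 0.26 in anti-PD-1/L1 cells, and none of the 8 was near background. The list was split: against anti-PD-1/L1, 5 of the 8 were higher, 1 (Cd3d) was lower and 2 (Cd3g and Cd247) did not pass, in combination and in anti-CD27 alike. Of all rows, 72.1% and 70.5% passed in these comparisons. Of 11 macrophage, monocyte and neutrophil rows, 10 in the combination group, 11 in the anti-CD27 group and 11 in the anti-PD-1/L1 group were no more than 1 log2 unit above the background controls. For B cell markers these counts were 5, 5 and 6 of 7 rows, and the list's mean ran from 3.52 to 3.56 in combination, from 3.56 to 3.58 in anti-CD27 and from 3.93 to 4.00 in anti-PD-1/L1 arrays. The counts were 3, 3 and 3 of 4 rows for CD4 T cell markers, 6, 6 and 6 of 7 for NK markers, 3, 3 and 3 of 4 for erythroid markers and 6, 6 and 7 of 8 for dendritic markers. Among the last, Itgax, the integrin chain CD11c, stood at 7.38, 7.52 and 7.58 in combination, 4.47, 4.81 and 5.02 in anti-CD27, and 5.17, 4.84 and 5.16 in anti-PD-1/L1 mice, while Flt3 and Xcr1 were below background in every group. The part of other cells in the results was not tested. In bulk RNA, fewer cells of a type and less RNA per cell cannot be told apart.

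The combination and the anti-CD27 groups both had higher mRNA for the class I heavy chains, their light chain, the peptide transporter, tapasin and Nlrc5 than the anti-PD-1/L1 group in the values as deposited, and lower mRNA for the immunoproteasome subunits Psmb8 and Psmb9. Of the 7 class I genes, Nlrc5 alone kept its direction in both comparisons when the arrays' positive controls were a covariate (below). Against anti-PD-1/L1, 9 of the 10 genes passed an adjusted p of 0.05 in the combination group (7 higher and 2 lower), where 72.1% of all rows passed (19.2% higher and 53% lower). All 10 passed in the anti-CD27 group (7 higher and 3 lower), where 70.5% of all rows passed (17.3% higher and 53.3% lower). Between combination and anti-CD27 none of the 10 passed in limma, where 1.74% of all rows did (1.23% higher and 0.514% lower). Of the 10 genes, 2 had an unadjusted p under 0.05 in that comparison, where 9.74% of all rows did. With array weights 1 of the 10 passed, where 8.29% of all rows did. Most rows passed against anti-PD-1/L1, and no test set the count of these genes against that share. All 10 genes lie among the 15954 rows with the higher mean levels, and there 36.9% of rows were higher and 40.2% lower in combination than in anti-PD-1/L1, and 33.4% higher and 40.8% lower in anti-CD27 than in anti-PD-1/L1. The median difference of the 10 genes was -0.06 for combination against anti-CD27, 0.42 for combination against anti-PD-1/L1 and 0.56 between anti-CD27 and anti-PD-1/L1 (log2), beside -0.00, -0.26 and -0.26 over all rows and 0, -0.03 and -0.05 over the 15954 rows with the higher mean levels. The last 2 comparisons share the same anti-PD-1/L1 arrays and are not independent of each other.

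**Figure D2:**
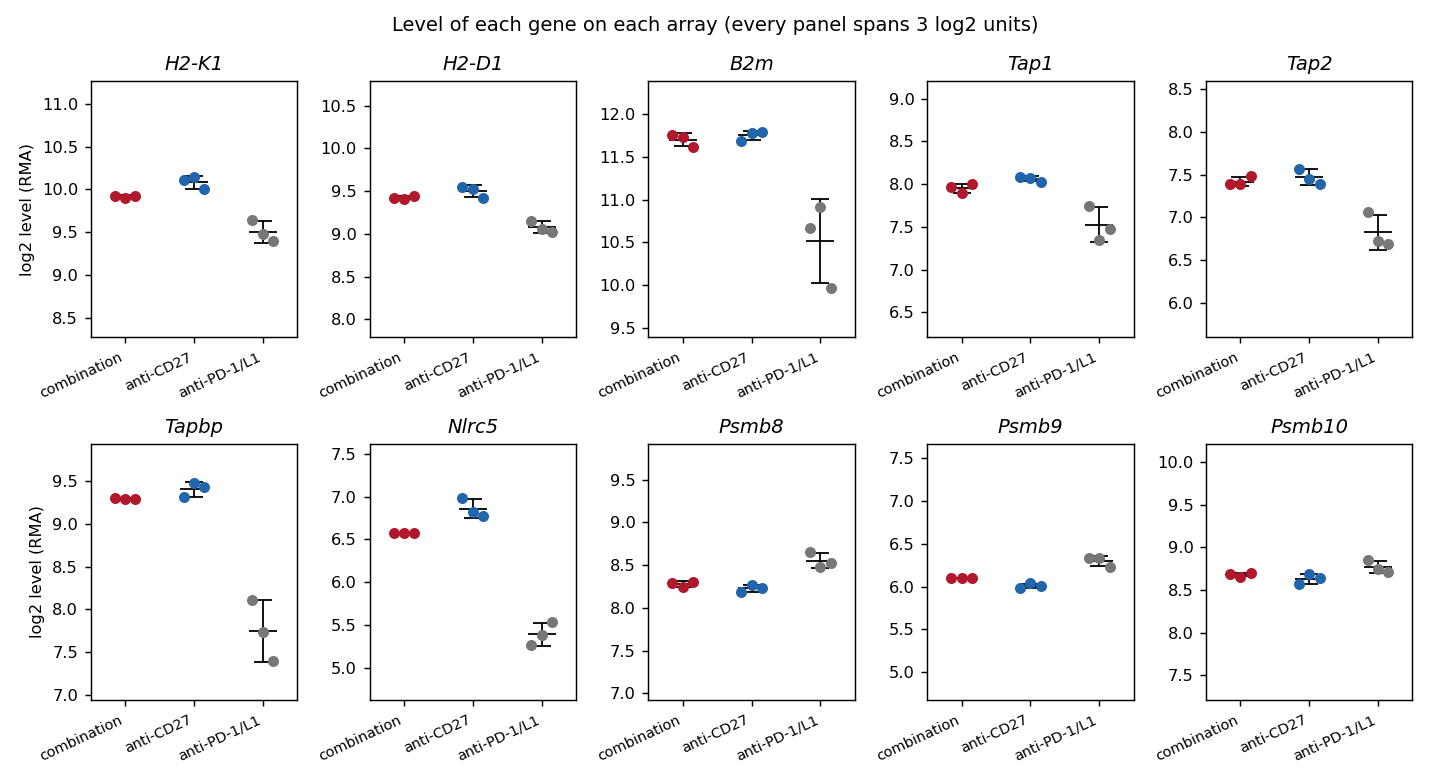
Log2 level of each of the 10 genes on each of the 9 arrays, one panel per gene, with the groups ordered left to right as combination, anti-CD27, anti-PD-1/L1, a point per mouse and a bar at the group mean with the SD; each vertical axis spans 3 log2 units from its own start. In the values as deposited, before any covariate, the 7 class I genes are lowest on all 3 anti-PD-1/L1 arrays and the 3 immunoproteasome subunits are highest there.

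The classical heavy chains H2-K1 and H2-D1, which bind the peptide and contact the T cell receptor, were both lowest in the anti-PD-1/L1 group. H2-K1 had log2 levels of 9.92, 9.90 and 9.92 in combination mice, 10.10, 10.15 and 10.00 in anti-CD27 mice, and 9.64, 9.48 and 9.39 in anti-PD-1/L1 mice. The combination values lay below all anti-CD27 values and above all anti-PD-1/L1 values. H2-K1 was 1.33-fold higher in combination than in anti-PD-1/L1 cells (log2 difference 0.41 ± 0.07 SE, adjusted p = 0.000866) and 1.49-fold higher in anti-CD27 than in anti-PD-1/L1 cells (0.58, adjusted p = 0.000134). Its difference of -0.17 ± 0.07 between combination and anti-CD27 did not pass (adjusted p = 0.468). H2-D1, whose protein H-2Db presents the gp100 peptide, had levels of 9.41, 9.41 and 9.44 in combination, 9.55, 9.53 and 9.42 in anti-CD27, and 9.16, 9.06 and 9.02 in anti-PD-1/L1 mice. The combination and anti-CD27 arrays overlapped, and all 6 were above the anti-PD-1/L1 arrays. The H2-D1 difference was 0.34 ± 0.06 in combination and 0.42 ± 0.06 in anti-CD27 cells, each against anti-PD-1/L1 (adjusted p = 0.000664 and 0.000232), and -0.08 ± 0.06 for combination against anti-CD27 (adjusted p = 0.933). Class I heavy chain genes are close in sequence, the platform annotation gives the H2-D1 row a second gene ID, and which of these transcripts each probe set reads was not tested.

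B2m, the light chain that every class I molecule needs at the cell surface, had levels of 11.76, 11.74 and 11.62 in combination, 11.69, 11.78 and 11.79 in anti-CD27, and 10.67, 10.91 and 9.97 in anti-PD-1/L1 mice. Mice of the first 2 groups overlapped, and the anti-PD-1/L1 mice were lower and spread over nearly 1 log2 unit. B2m was 2.28-fold higher in combination than in anti-PD-1/L1 cells (adjusted p = 0.000773) and 2.36-fold higher in anti-CD27 than in anti-PD-1/L1 cells (adjusted p = 0.000654). Between combination and anti-CD27 the difference was -0.05, with a 95% interval from -0.51 to 0.41, so that a change of either sign within those bounds was not detectable.

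Tap1 and Tap2 encode the chains that pair to form the peptide transporter, and both were higher against anti-PD-1/L1. Tap1 had levels of 7.96, 7.90 and 8.0 in combination, 8.09, 8.07 and 8.03 in anti-CD27, and 7.75, 7.34 and 7.48 in anti-PD-1/L1 mice. No array of one group reached the range of another, with anti-CD27 highest and combination next. Tap1 was 1.35-fold higher in combination than in anti-PD-1/L1 cells (0.43 ± 0.09, adjusted p = 0.00315) and 1.45-fold higher in anti-CD27 than in anti-PD-1/L1 cells (0.54 ± 0.09, adjusted p = 0.000913). Tap2 had levels of 7.39, 7.39 and 7.48 in combination, 7.57, 7.44 and 7.39 in anti-CD27, and 7.06, 6.72 and 6.69 in anti-PD-1/L1 mice. Combination and anti-CD27 overlapped for Tap2, and the anti-PD-1/L1 mice were lower. Tap2 was 1.51-fold higher in combination (adjusted p = 0.000788) and 1.56-fold higher in anti-CD27 cells (adjusted p = 0.000535), each against anti-PD-1/L1. Neither gene passed between combination and anti-CD27 (-0.11 for Tap1, adjusted p = 0.975, and -0.05 for Tap2, adjusted p = 1).

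Tapbp encodes tapasin, which bridges the transporter and the empty class I molecule, and it had the largest difference of the 10 genes in both comparisons with anti-PD-1/L1. Its levels were 9.31, 9.29 and 9.29 in combination, 9.31, 9.47 and 9.43 in anti-CD27, and 8.11, 7.73 and 7.39 in anti-PD-1/L1 mice. All 6 mice given anti-CD27, with or without blockade, were more than 1 log2 unit above the highest anti-PD-1/L1 mouse. Tapbp was 2.92-fold higher in combination (1.55 ± 0.15, adjusted p = 3.67e-05) and 3.15-fold higher in anti-CD27 cells (1.66 ± 0.15, adjusted p = 3.07e-05), each against anti-PD-1/L1. The combination arrays were below the anti-CD27 arrays by a narrow margin, with a difference of -0.11 that did not pass (95% interval from -0.46 to 0.24, adjusted p = 1).

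Nlrc5, the class I transactivator, was read from a row that also names the microRNA Mir7072. It had a level of 6.58 on each of the 3 combination arrays, 6.98, 6.82 and 6.78 in anti-CD27, and 5.26, 5.38 and 5.53 in anti-PD-1/L1 mice. The 3 groups did not overlap, with anti-CD27 highest and anti-PD-1/L1 lowest. Nlrc5 was 2.27-fold higher in combination (1.18 ± 0.08, adjusted p = 5.14e-06) and 2.77-fold higher in anti-CD27 cells (1.47 ± 0.08, adjusted p = 1.52e-06), each against anti-PD-1/L1. Against anti-CD27, the combination value was lower by 0.29 ± 0.08 (95% interval from -0.47 to -0.10). This did not pass after adjustment (adjusted p = 0.158) and did with array weights (adjusted p = 0.0155), a setting in which 8.29% of all rows passed. The 3 combination values of Nlrc5 are identical to every digit deposited, as are those of Psmb9. Such ties occurred on all 3 arrays of a group in 5.64% of rows for combination, 8.81% for anti-CD27 and 0.743% for the anti-PD-1/L1 group, and their cause was not tested. An SD of 0 from tied values is not a measure of the spread between mice.

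In the values as deposited, the immunoproteasome subunits ran the other way from the class I genes. With the positive control covariate H2-K1, B2m, Tap1, Tap2 and Tapbp were negative too in both comparisons with anti-PD-1/L1. Psmb8, which replaces the chymotrypsin-like subunit Psmb5, had levels of 8.29, 8.24 and 8.31 in combination, 8.19, 8.26 and 8.24 in anti-CD27, and 8.66, 8.48 and 8.53 in anti-PD-1/L1 mice. The first 2 groups overlapped, and the anti-PD-1/L1 mice were higher. Psmb8 was lower in combination (-0.27 ± 0.06, adjusted p = 0.00271) and in anti-CD27 cells (-0.33 ± 0.06, adjusted p = 0.0011), each against anti-PD-1/L1. Psmb9, which replaces the caspase-like subunit Psmb6, had a level of 6.09 on all 3 combination arrays, 5.99, 6.04 and 6.00 in anti-CD27, and 6.34, 6.33 and 6.23 in anti-PD-1/L1 mice. The groups did not overlap. Psmb9 was lower in combination (-0.21 ± 0.05, adjusted p = 0.00436) and in anti-CD27 cells (-0.29 ± 0.05, adjusted p = 0.000673), each against anti-PD-1/L1. The median of all rows was -0.26 in both comparisons, and that of rows with the higher mean levels, where both genes lie, was -0.03 and -0.05. With the positive control covariate the differences stayed negative and did not pass, at -0.64 and -0.65 for Psmb8 (adjusted p = 0.152 and 0.111) and -0.43 and -0.49 for Psmb9 (adjusted p = 0.222 and 0.133), in combination and in anti-CD27.

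Psmb10, which replaces the trypsin-like subunit Psmb7, had levels of 8.68, 8.66 and 8.70 in combination, 8.57, 8.69 and 8.64 in anti-CD27, and 8.85, 8.75 and 8.71 in anti-PD-1/L1 mice. It was the gene with the smallest differences against anti-PD-1/L1. The difference between combination and anti-PD-1/L1 was -0.09 (95% interval from -0.22 to 0.04, adjusted p = 0.163). That between anti-CD27 and anti-PD-1/L1 was -0.14 (adjusted p = 0.0493), a call that held in 4 of 19 alternatives, and in 1 of the 9 fits that leave out an array (that without anti-PD-1/L1 mouse 3), where the adjusted p was up to 0.158. All 3 subunits had, between combination and anti-CD27, small positive differences that did not pass, 0.05 for Psmb8 (adjusted p = 1), 0.09 for Psmb9 (adjusted p = 0.736) and 0.05 for Psmb10 (adjusted p = 1).

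**Figure D3:**
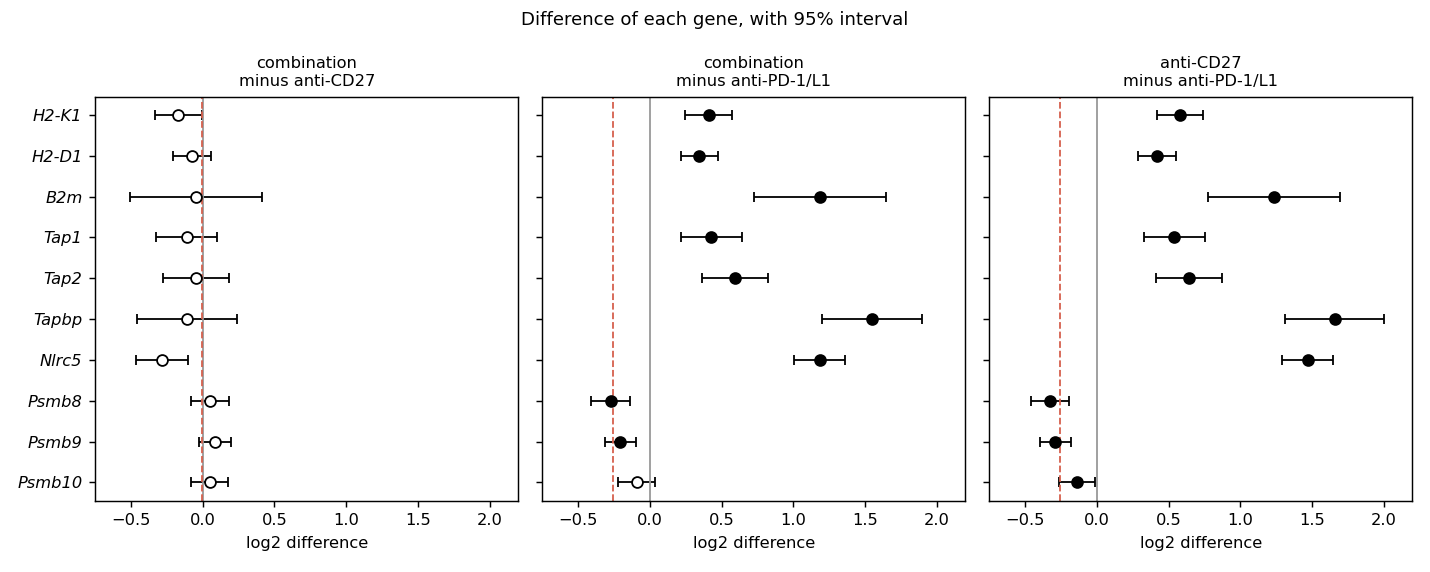
Log2 difference of each of the 10 genes with its 95% confidence interval, for combination minus anti-CD27, combination minus anti-PD-1/L1 and anti-CD27 minus anti-PD-1/L1, with filled points where the adjusted p is under 0.05 and the median of all 31909 rows as a dashed line. In the values as deposited, before any covariate, the 7 class I genes lie above 0 and the 3 subunits below it against anti-PD-1/L1, and between combination and anti-CD27 all intervals but those of H2-K1 and Nlrc5 include 0.

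A pair of genes that moved apart in the values as deposited are neighbours. On chromosome 17 the protein-coding genes Psmb9, Tap1, Psmb8 and Tap2 follow one another, and Psmb9 and Tap1 start from opposite ends of the 225 bases printed above. Against anti-PD-1/L1, Tap1 was higher by 0.43 in combination and by 0.54 in anti-CD27, while Psmb9 differed by -0.21 and -0.29. With the positive control covariate Tap1 turned to -0.41 and -0.21, the same sign as Psmb9, and neither gene passed. After quantile normalization Tap1 did not pass in combination against anti-PD-1/L1. Of the remaining genes, H2-K1, H2-D1 and Tapbp are on chromosome 17 too, B2m is on chromosome 2, and Nlrc5 and Psmb10 are on chromosome 8.

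The order of group means was the same for all 7 class I genes, with anti-CD27 above combination and anti-PD-1/L1 lowest, and the reverse for the 3 subunits. The step between combination and anti-CD27 passed for none of the 10. The step between combination and anti-PD-1/L1 passed for all but Psmb10. Setting the mean of the positive controls as a covariate turned the sign of H2-K1, H2-D1, B2m, Tap1, Tap2 and Tapbp in combination against anti-PD-1/L1, and of the same genes other than H2-D1 in anti-CD27 against anti-PD-1/L1. In that fit 1 gene of the 10 passed in each comparison, Nlrc5, which was higher (the values of the genes that turned are given with the other settings). Of all rows in that fit, 2.93% passed as higher and 3.35% as lower in combination against anti-PD-1/L1. Between anti-CD27 and anti-PD-1/L1 these shares were 3.55% and 4.46%, and no test set the count of these genes against them. Nlrc5 passed in all 18 alternatives of each of these 2 comparisons that give it a value, with an adjusted p of up to 0.0248 and 0.0133. Its difference ran over them from 0.94 to 1.82 in combination and from 1.25 to 2.04 in anti-CD27. With quantile normalization Tap1 and Tap2 no longer passed in combination against anti-PD-1/L1 and Psmb10 did, as lower. Of the rows that passed, 26.6% were higher in combination than in anti-PD-1/L1 in the values as deposited and 44.3% after quantile normalization, and between anti-CD27 and anti-PD-1/L1 these shares were 24.5% and 41.3%. That normalization moved the median of all rows to -0.05 and -0.06, and in it Psmb8 differed by -0.61 in combination and -0.60 in anti-CD27, and Psmb9 by -0.57 and -0.64, each against anti-PD-1/L1.

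Other class I heavy chains and class I-like molecules, 26 of 27 listed genes in 23 rows, were mixed against anti-PD-1/L1. In combination 7 rows were higher and 11 lower, in anti-CD27 7 were higher and 8 lower, and their median differences were -0.19 and -0.10 (-0.05 and 0.02 with the positive control covariate). Over all rows, 19.2% were higher and 53% lower in combination, and 17.3% higher and 53.3% lower in anti-CD27. No test set the counts of this or any later list against such shares. The nonclassical gene H2-T24 had levels of 5.98, 5.98 and 5.95 in combination, 6.44, 6.40 and 6.36 in anti-CD27, and 5.21, 5.26 and 5.06 in anti-PD-1/L1 mice. It was 1.73-fold higher in combination and 2.34-fold higher in anti-CD27 than in anti-PD-1/L1 cells (adjusted p = 1.03e-05 and 8.38e-07), with differences of 0.46 and 0.92 that did not pass with the positive control covariate. It was also the only row of the list that passed between combination and anti-CD27, where 1.74% of all rows passed. There it was lower by 0.43 (adjusted p = 0.0109), a call lost in 5 of the 9 fits that leave out 1 array, with an adjusted p of up to 0.0666. Mr1, which presents vitamin B metabolites to MAIT cells, had levels of 6.40, 6.36 and 6.27 in combination, 6.53, 6.62 and 6.55 in anti-CD27, and 5.70, 4.83 and 4.85 in anti-PD-1/L1 mice. It was 2.32-fold higher in combination and 2.71-fold higher in anti-CD27 than in anti-PD-1/L1 cells (adjusted p = 0.000715 and 0.000294), and its direction turned when the positive controls were a covariate, to -1.36 and -0.88 (adjusted p = 0.101 and 0.194). A row that names both H2-Q6 and H2-Q8, nonclassical genes of the Q region, had levels of 9.67, 9.66 and 9.69 in combination, 9.86, 9.87 and 9.76 in anti-CD27, and 9.01, 8.72 and 8.90 in anti-PD-1/L1 mice, the same order of groups as H2-K1, and its differences against anti-PD-1/L1 did not pass with the covariate either (0.38 and 0.58).

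Genes for peptide trimming and loading in the endoplasmic reticulum were mostly higher against anti-PD-1/L1, with 10 of 11 higher and 1 lower in combination and 9 higher and 1 lower in anti-CD27 (medians 1.27 and 0.88 as deposited, -0.11 and -0.39 with the positive control covariate). Among all rows, 72.1% and 70.5% passed in these comparisons, 19.2% and 17.3% as higher. The peptide-trimming protease Erap1 had levels of 7.99, 7.96 and 7.75 in combination, 7.65, 7.65 and 7.76 in anti-CD27, and 6.44, 5.71 and 5.60 in anti-PD-1/L1 mice. The loading chaperone Calr had levels of 9.53, 9.52 and 9.53 in combination, 9.21, 9.23 and 9.21 in anti-CD27, and 7.92, 7.30 and 7.26 in anti-PD-1/L1 mice. Both were lowest in the anti-PD-1/L1 mice. Calr was 4.11-fold higher in combination and 3.31-fold higher in anti-CD27 than in anti-PD-1/L1 cells (adjusted p = 9.69e-06 and 2.60e-05), and Erap1 was 3.96-fold and 3.42-fold higher (adjusted p = 3.53e-05 and 7.24e-05). Neither gene passed with the positive control covariate: Calr was at 0.11 and -0.01 (adjusted p = 0.874 and 0.989), and Erap1 turned to -0.57 and -0.52 (adjusted p = 0.272 and 0.254). In combination against anti-CD27, where 1.74% of all rows passed, 2 of the 11 did, both chaperones of the endoplasmic reticulum and both higher. The chaperone Hspa5 was higher by 0.43 (adjusted p = 0.0434, up to 0.175 without 1 array). The disulfide isomerase P4hb was higher by 0.52 (adjusted p = 0.0408, up to 0.182 without 1 array).

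Among proteasome activators and assembly factors, 7 of 9 were higher and 1 lower in combination, and 7 higher and 2 lower in anti-CD27, each against anti-PD-1/L1 (medians 1.12 and 0.80 as deposited, -0.36 and -0.52 with the positive control covariate), and none passed between combination and anti-CD27. The shares of all rows passing were 72.1% and 70.5% against anti-PD-1/L1 (19.2% and 17.3% higher), and 1.74% between combination and anti-CD27. Psme2, a subunit of the interferon-inducible PA28 cap, was read from a row that also names Psme2b. It had levels of 8.93, 9.11 and 8.71 in combination, 9.26, 9.03 and 9.17 in anti-CD27, and 5.92, 6.57 and 6.36 in anti-PD-1/L1 mice. The combination and anti-CD27 mice overlapped and were far above the anti-PD-1/L1 mice. Psme2 was 6.20-fold higher in combination (adjusted p = 3.55e-06) and 7.33-fold higher in anti-CD27 (adjusted p = 2.26e-06), each against anti-PD-1/L1. Its partner Psme1 was 1.25-fold and 1.26-fold higher in the same comparisons (adjusted p = 0.00853 and 0.00658), calls that were lost with a change of sign both after quantile normalization (-0.08 and -0.00042) and with the positive control covariate (-0.53 and -0.43).

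The constitutive 20S core subunits, 14 genes, split against anti-PD-1/L1 into 4 higher and 5 lower in combination and 1 higher and 7 lower in anti-CD27 (medians -0.01 and -0.21 as deposited, -0.35 and -0.54 with the positive control covariate). Beside them, 19.2% of all rows were higher and 53% lower in combination, and 17.3% and 53.3% in anti-CD27. Psmb5, whose row also names Mir686, had levels of 7.72, 7.67 and 7.95 in combination, 7.54, 7.54 and 7.36 in anti-CD27, and 8.34, 8.60 and 8.75 in anti-PD-1/L1 mice. It was lower by 0.78 in combination (adjusted p = 0.000372) and lower by 1.08 in anti-CD27 (adjusted p = 6.91e-05), each against anti-PD-1/L1, the same direction as Psmb8, the subunit that replaces it. With the positive control covariate Psmb5 turned to 0.51 and 0.08, and neither passed. Psmb7 had levels of 8.21, 8.15 and 8.37 in combination, 7.98, 8.12 and 8.06 in anti-CD27, and 8.27, 7.99 and 8.22 in anti-PD-1/L1 mice, and it passed in none of the 3 comparisons. Psmb6 had levels of 7.21, 7.22 and 7.32 in combination, 6.97, 7.14 and 7.04 in anti-CD27, and 7.33, 7.10 and 7.14 in anti-PD-1/L1 mice, and did not pass in any comparison either. After quantile normalization both passed as lower against anti-PD-1/L1, Psmb6 by -0.37 in combination and -0.54 in anti-CD27 (adjusted p = 0.00196 and 0.000225) and Psmb7 by -0.27 and -0.40 (adjusted p = 0.0395 and 0.00693). In the values as deposited, the subunits that Psmb9 and Psmb10 replace showed no difference that passed, with an interval for Psmb7 in combination against anti-PD-1/L1 from -0.12 to 0.29. All 14 differences between combination and anti-CD27 were positive with a median of 0.24, beside -0.00 over all rows. None of the 14 passed after adjustment, 9 had an unadjusted p under 0.05, and 6 passed with array weights. The shares of all rows were 1.74%, 9.74% and 8.29%.

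Of 7 cytosolic peptidases, 5 were higher and 1 lower in combination, and 4 higher and 1 lower in anti-CD27, each against anti-PD-1/L1 (medians 0.46 and 0.27 as deposited, 0.05 and -0.01 with the positive control covariate). For all rows the shares passing were 72.1% and 70.5% in these comparisons, and 1.74% between combination and anti-CD27. Tpp2, which trims peptides released by the proteasome, had levels of 7.84, 7.83 and 7.74 in combination, 7.38, 7.38 and 7.39 in anti-CD27, and 5.63, 5.37 and 5.32 in anti-PD-1/L1 mice. It was 5.14-fold higher in combination and 3.84-fold higher in anti-CD27 than in anti-PD-1/L1 cells (adjusted p = 1.07e-07 and 3.21e-07). It was also 1.34-fold higher in combination than in anti-CD27 cells (adjusted p = 0.0428, up to 0.178 without 1 array). The peptidase Nln, whose levels of 3.63 to 4.24 over the 9 arrays were near background, was the other gene of this list to pass in that comparison (higher by 0.37, adjusted p = 0.0225, up to 0.124 without 1 array).

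Of 22 genes of interferon signalling and of class I promoter factors, 15 were higher and 2 lower in combination, and 15 higher and 2 lower in anti-CD27, each against anti-PD-1/L1 (medians 1.11 and 1.03 as deposited, 0.17 and 0.26 with the positive control covariate). All rows together had 72.1% and 70.5% passing there, 19.2% and 17.3% as higher. Irf1, the interferon-induced factor that acts on class I promoters, had levels of 7.43, 7.44 and 7.43 in combination, 7.87, 7.64 and 7.54 in anti-CD27, and 6.51, 6.47 and 6.38 in anti-PD-1/L1 mice. Irf1 was 1.97-fold higher in combination and 2.34-fold higher in anti-CD27 than in anti-PD-1/L1 cells (adjusted p = 1.75e-05 and 5.81e-06), while its -0.25 between combination and anti-CD27 did not pass (adjusted p = 0.282). Jak1, a kinase of the interferon receptors, was 8.07-fold higher in combination and 7.86-fold higher in anti-CD27 than in anti-PD-1/L1 cells (adjusted p = 4.26e-08 and 5.51e-08). Ifng itself had levels of 6.95, 6.88 and 6.38 in combination, 6.52, 6.69 and 6.36 in anti-CD27, and 5.85, 4.63 and 5.24 in anti-PD-1/L1 mice. It was 2.83-fold higher in combination and 2.43-fold higher in anti-CD27 than in anti-PD-1/L1 cells (adjusted p = 0.00143 and 0.00348), and combination and anti-CD27 overlapped. With the positive control covariate Ifng turned to -1.03 and -0.99 and did not pass (adjusted p = 0.616 and 0.58). Rfx5, part of the complex that recruits NLRC5 to class I promoters, was 1.66-fold and 1.76-fold higher in the same comparisons. With that covariate Irf1 (0.60 and 0.89) and Rfx5 (0.19 and 0.33) kept their direction and did not pass.

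Between combination and anti-CD27, where 1.74% of all rows passed, 2 of these 22 genes did and both were lower. Stat2, a factor of type I interferon signalling, was at 6.40 on all 3 combination arrays, 6.79, 6.83 and 6.67 in anti-CD27, and 4.82, 4.84 and 4.87 in anti-PD-1/L1 mice, and was lower by 0.36 in combination than in anti-CD27 (adjusted p = 0.0139, up to 0.0829 without 1 array). Ifngr2, a chain of the interferon-gamma receptor, was at 4.02, 4.16 and 4.08 in combination, 4.63, 4.61 and 4.45 in anti-CD27, and 4.47, 4.48 and 4.36 in anti-PD-1/L1 mice. It was lower by 0.48 in combination than in anti-CD27 (adjusted p = 0.0133, up to 0.0747 without 1 array). Its combination and anti-PD-1/L1 means were no more than 1 log2 unit above the background controls. With the positive controls as a covariate, Irf2, Jak1, Rela, Psme2, Tpp2 and Uggt1 were among the listed genes that still passed against anti-PD-1/L1 in both comparisons, all higher. In that fit the other class I genes had 1 call in each of these comparisons, as lower. The constitutive subunits had 0 calls in combination and 2 in anti-CD27, as lower. The loading list had 1 in each, the activators 2 in each and the peptidases 1 in each, all higher. The interferon and promoter factors had 4 in combination and 6 in anti-CD27, all higher. Over all rows of that fit, 2.93% were higher and 3.35% lower in combination, and 3.55% higher and 4.46% lower in anti-CD27.

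**Figure D4:**
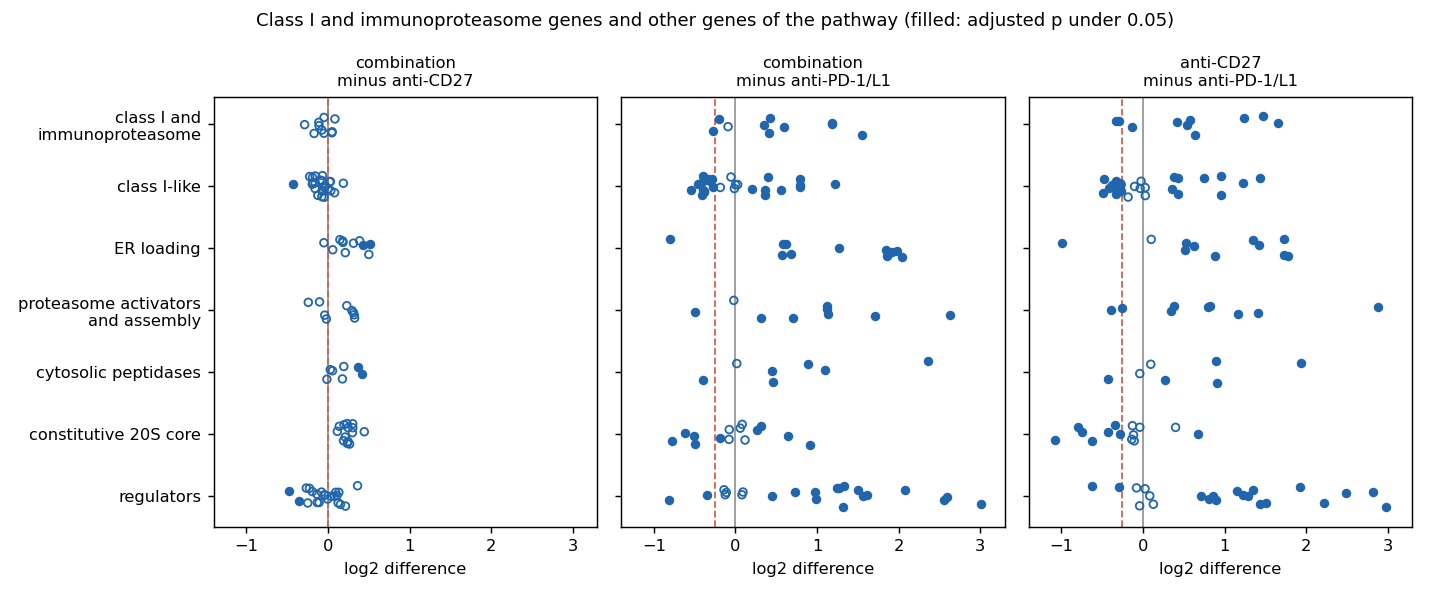
Log2 differences of the genes of each pathway list and of the class I and immunoproteasome genes in the 3 comparisons, a point per gene, filled where the adjusted p is under 0.05, with a dashed line at the median of all rows (regulators are the interferon and promoter factor list). Genes that share a row have points at the same difference. In the values as deposited, before any covariate, most points of the loading, activator and interferon lists lie above 0 against anti-PD-1/L1, and those of other class I genes and constitutive subunits lie on both sides.

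Across the 9 arrays, the rows whose pattern was most like the mean of the 10 genes were Slc44a2 and Rac2 (r = 0.998 each) and Ndrg3, Vps11 and Eif1-ps3 (r = 0.997 each), out of 11635 candidates of which 84 had r over 0.99. The arrays share the 3 groups, so these values describe the difference between groups first of all. With the group means taken out, Gskip, Aqp6, Nanp, Wdr77 and Usp22 were most alike (r from 0.989 to 0.991). Against that mean, each class I gene had r from 0.94 to 1.00 over the 9 arrays, Psmb8 had -0.87, Psmb9 -0.88 and Psmb10 -0.63. Each gene is itself part of the mean, so its r is not independent of it. Class I genes make up most of the mean, and r over the 9 arrays restates the group differences given above. With the group means taken out, Nlrc5 had -0.71 and the other 9 genes had r from 0.65 to 0.95, with the subunits on the same side as the other class I genes.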

How the data were processed

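RNA from sorted cells of 9 mice (3 groups of 3) was hybridised to 1 array per mouse. The values are log2 expression levels that the authors made with RMA (background correction, quantile normalization and summary of probes) using oligo 1.38.0, per the submitters' processing notes; the genome build behind the probe sets is not given in the sources used here. Intensities behind the deposited log2 values were not used, and the number of arrays limits the precision.

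Of 72688 rows, 6732 controls were set aside. Gene symbols came from the platform annotation, with 2460 updated through RefSeq's table, and 31258 rows named 1 gene, 1492 several and 33206 none. One row per gene name or combination of names, that with the highest mean, gave the 31909 rows tested, with no filter on low values. All 9 arrays were fitted with 1 mean per group (limma 3.58.1, R 4.3.3), with two-sided moderated tests and Benjamini-Hochberg adjustment over all 31909 rows, and a gene passed at an adjusted p under 0.05. The fit was tested on simulated data. An exact permutation test of 3 mice against 3 cannot go below p = 0.1.

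The genes and the pathway and marker lists were chosen with earlier results of these data known. Named are all 10 genes; from each pathway list, for each comparison, genes among the 4 largest differences that passed; and Psmb5, Psmb6, Psmb7, Psme1, Psme2, Irf1, Rfx5, Ciita and Ifng. Nfkb1, H2-L, Lnpep and Nrdc were not used here. Same-numbered samples of different groups deviated from their group means with correlations from -0.195 to 0.162, and the labels tie no number to a shared litter or day, so the numbers were not taken as pairs. Promoter windows come from RefSeq (GRCm38.p6), searched on both strands. Alternatives were other row choices, a filter, quantile normalization, limma-trend, 6 arrays, a replicate block, array weights, a positive control covariate and leaving out each array.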

Additional observations from a re-analysis of the deposited data

How the results depend on the processing

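Of 567 values of the 10 genes over the alternatives, 530 kept their direction and their side of the threshold, 33 lost the call (10 in combination against anti-PD-1/L1 and 23 between anti-CD27 and anti-PD-1/L1), 2 gained it and 13 changed sign, of which 11 also lost the call. Leaving out each array in turn gave 0 to 0 genes passing for combination against anti-CD27, 9 to 9 for combination against anti-PD-1/L1 and 9 to 10 between anti-CD27 and anti-PD-1/L1. With array weights 1 gene, Nlrc5, passed in combination against anti-CD27, where 8.29% of all rows did. With the positive control covariate 1 gene, again Nlrc5, passed in each comparison with anti-PD-1/L1. For combination against anti-PD-1/L1 the covariate gave -0.24 for H2-K1, -0.0061 for H2-D1, -0.26 for B2m, -0.41 for Tap1, -0.46 for Tap2 and -0.29 for Tapbp. Between anti-CD27 and anti-PD-1/L1 it gave -0.0019 for H2-K1, -0.065 for B2m, -0.21 for Tap1, -0.31 for Tap2 and -0.0010 for Tapbp. The cause was not tested, and the positive control means did not overlap (6.68 to 6.83 on the 6 combination and anti-CD27 arrays, 5.59 to 5.96 on anti-PD-1/L1 arrays). Between combination and anti-CD27, Psmb8 was -0.014 after quantile normalization and Tap2 ran from -0.089 to 0.0026 when each array was left out, changing sign without anti-CD27 replicate 1. The replicate block gave 0 genes for combination against anti-CD27, 9 for combination against anti-PD-1/L1 and 9 between anti-CD27 and anti-PD-1/L1, losing Psmb10; over all rows of the first comparison it gave 379 calls, against 556 without it, and among the listed genes named it ended the calls of H2-Oa, Hspa5, Nln, P4hb, Stat2 and Tpp2 there. Other settings moved those 556 calls to between 164 (without anti-CD27 replicate 1) and 2645 (array weights). With the covariate, 2006 rows passed in combination against anti-PD-1/L1, where 23011 passed without it, and 2554 in anti-CD27 against anti-PD-1/L1, where 22508 did. Rows near background, such as Nln, Ifngr2 and Ciita, limit what their differences can show.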

Other observations

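MHC class II genes such as H2-Oa lie beside the class I genes on chromosome 17, while Cd74 and Ciita lie on other chromosomes. All were measured in the same cells. Of 10 rows for class II and antigen-presenting cell genes, 2 were higher and 4 lower in combination than in anti-PD-1/L1 (median difference -0.05). In anti-CD27 against anti-PD-1/L1, 3 were higher and 3 lower (median -0.15). Over all rows, 72.1% and 70.5% passed in these comparisons. Cd74 was among the higher rows in both. The row of Cd74, the invariant chain of class II (the row also names Mir5107), had levels of 8.28, 8.28 and 8.26 in combination, 8.26, 8.62 and 8.71 in anti-CD27, and 4.61, 4.68 and 4.91 in anti-PD-1/L1 mice. All 6 mice given anti-CD27 were far above the anti-PD-1/L1 mice, by 11.6-fold in combination and 13.9-fold in anti-CD27 (limma, adjusted p = 1.05e-07 and 8.61e-08), and it passed in all 18 alternatives that give it a value (adjusted p up to 0.0124 and 0.00767). Ciita, the class II transactivator related to Nlrc5, was near background in all groups, at 3.22, 3.28 and 3.29 in combination, 3.23, 3.29 and 3.29 in anti-CD27, and 3.37, 3.66 and 3.78 in anti-PD-1/L1 mice. H2-Oa, a chain of the class II loading regulator H2-O, was at 6.54, 6.50 and 6.52 in combination, 7.06, 7.20 and 7.15 in anti-CD27, and 6.85, 6.62 and 6.35 in anti-PD-1/L1 mice, and was lower in combination than in anti-CD27 by 0.62 (limma, adjusted p = 0.0322). That call was lost in 9 of 19 alternatives, among them the replicate block (adjusted p = 0.0704) and 7 of the 9 fits that leave out an array (adjusted p up to 0.152). Whether other cells in the sort had a part in these values was not tested. These genes were picked out after their values were seen.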
